A study of Mus musculus with 9 samples.

Results

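The genes described here are 31 markers of B lymphocytes and of antigen presentation by MHC class II, read as markers in whole inguinal white adipose tissue of mice. Members were the named genes, each taken from the array row that the platform annotation gives to that symbol alone, and where a gene had several such rows the brightest was used. Of the 31 genes, 30 had a row of their own. The single row of Cd74, the invariant chain that guides MHC class II molecules through the cell, also names a microRNA gene, so no value is given for it. The filter on low values kept all 30 genes, which are read among the 16639 genes tested, out of 30142 genes with a row of 1 symbol. Of the 30, 28 had 1 row and 2 had 2 rows (Cr2 and Cd83).

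B cells detect antigen with a surface immunoglobulin whose signal is carried into the cell by the chains encoded by Cd79a and Cd79b, and they gather in the follicles of lymph nodes. MHC class II molecules display peptides of engulfed proteins to helper T cells, and B cells, dendritic cells and macrophages carry them. The inguinal fat pad surrounds a lymph node, and the labels do not say whether that node was removed.

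The 3 groups were cold-exposed controls, Zfp423 knockouts at room temperature and controls at room temperature (RT controls), with 3 arrays each. All animals carried Adiponectin-rtTA, a doxycycline-dependent activator named for an adipocyte gene, and a TRE-driven Cre recombinase. Controls were Zfp423+/+ and knockouts Zfp423loxP/loxP. All received doxycycline chow for 28 days from 8 weeks of age, and the cold-exposed controls were kept at 6 °C for the final 14 days. The design set the knockout tissue beside tissue in which cold had induced beige adipocytes. The knockout is labelled as one of adipocytes, so B cells and other leukocytes are not its stated target. Nothing in the labels ties the arrays to separate animals, so the p-values cover the variation among arrays alone, and that may be technical in part. The number of arrays limits the precision.

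Values are the deposited log2 expression values. The row of Zfp423, a zinc finger transcription factor, read 7.56, 8.15 and 8.04 on the knockout arrays and 8.74, 8.22 and 8.40 on the RT control arrays, a difference of -0.53 ± 0.20 log2 units (SE, limma adjusted p = 0.254). Ucp1, the uncoupling protein of thermogenic fat, rose by 6.90 ± 0.47 in the knockouts and by 6.61 ± 0.47 in the cold against RT controls (limma adjusted p = 0.00855 and 0.00224). Each group held an array whose values fell between those of the other 2 for most tested genes with 3 different values in the group. These were cold replicate 2 for 53.1%, knockout replicate 3 for 74.0% and RT control replicate 3 for 67.7% of such genes. Among genes whose outer arrays differed by over 0.5 log2 units, the in-between array stood at a median of 0.52, 0.52 and 0.50 of the way from one outer array to the other, in the same group order. Whether the in-between arrays hold RNA of the others was not tested, and the p-values treat the 3 arrays of a group as independent, which would not hold in that case. Without these 3 arrays together limma called 0 genes in each comparison. At an unadjusted p under 0.05 it then counted 682 genes for knockout against RT control, 781 for cold against RT control and 965 for cold against knockout. Adipocyte and epithelial markers went with the tissue label. The 9 adipocyte genes with a row had means over the arrays between 13.9 and 19.9. Of 10 mammary and other epithelial genes 0 passed the filter at 5.31, the median of all row means. The 8 skeletal muscle genes all passed it, with means between 8.03 and 14.4, so muscle transcripts were present beside those of fat.

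Sequence upstream of the start site was at hand for 23 of the 30 genes, from RefSeq on assembly GRCm38.p6. It is shown for the MHC class II genes because 4 of them share a promoter arrangement, whose part in the values was not tested. The motifs were picked after these promoters were read. The 250 bases before the start were searched on both strands. TGATTGG is known as the Y box of MHC class II promoters, and its reverse complement contains CCAAT. It was found in 6 of the 23 member promoters and in 8.38% of 27025 genes. The 6 were the B cell members Fcrla and Fcer2a and 4 of the 5 MHC class II members with a promoter sequence (H2-Aa, H2-Eb1, H2-DMb1 and H2-Ob). GNAAC, letters near the start of the X box to which the Rfx complex binds, followed by TGATTGG after 15 to 45 bases was found in the same 4 promoters and in 0.833% of all genes. In the windows below, GNAAC and TGATTGG stand in capitals, from chr17:34287861-34287910 on the minus strand for H2-Aa, and on the plus strand from chr17:34305770-34305818 for H2-Eb1, chr17:34153091-34153140 for H2-DMb1 and chr17:34238812-34238858 for H2-Ob.
H2-Aa: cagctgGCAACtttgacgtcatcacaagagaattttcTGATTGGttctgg
H2-Eb1: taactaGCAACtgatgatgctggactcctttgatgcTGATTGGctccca
H2-DMb1: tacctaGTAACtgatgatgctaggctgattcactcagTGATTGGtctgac
H2-Ob: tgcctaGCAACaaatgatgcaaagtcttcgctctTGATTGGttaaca
The capital blocks were 26, 25, 26 and 23 bases apart in this order, and TGATTGG began 50, 61, 63 and 59 bases before the start site. A match describes the letters and is not evidence of a bound site. AGGAAGT, letters of the kind bound by Ets factors such as Spi-B, was found in 6 of all 23 promoters, against 8.8% of all genes. These were the B cell members Cd79a, Cd72, Cd37, Vpreb3, Blnk and Tnfrsf13b, with 0 of the 5 MHC class II promoters among them. In Cd79a, shown because it carries a chain of the B cell receptor, AGGAAGT began 55 bases before the start. It stands in capitals below, in chr7:24897430-24897460 on the plus strand.
Cd79a: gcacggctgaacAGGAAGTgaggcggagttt
The octamer ATGCAAAT was found in 2 of the 23 (Vpreb3 and Blnk) and in 1.81% of all genes.

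B cell and MHC class II genes stood lower in the cold than in either room temperature group, and 0 of the 30 passed the threshold in any comparison (limma, Benjamini-Hochberg adjusted p under 0.05 over all tested genes). In cold-exposed against RT control tissue all 30 differences were below 0, with a median of -1.02 log2 units, or 2.02-fold lower, beside a median of -0.02 over all tested genes, of which 56.2% were below 0. The test called 0 of the 30 members and 1.56% of all genes, and 13 members had an unadjusted p under 0.05, all of them lower, against 11% of all genes. Limma adjusted p ran from 0.180 to 0.661. The cold and RT control arrays did not overlap for 12 of the 30 members, all lower in the cold, and for 18.2% of all genes in that direction. Fewer cells that express these genes and less of their RNA per cell cannot be told apart in these values. Lists of other leukocyte genes had medians of -1.25 (pan-leukocyte), -1.10 (macrophage), -1.01 (T cell) and -0.34 (dendritic cell) in this comparison.

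The spread among RT control arrays was of the size of these differences. The range over the 3 RT control arrays exceeded the cold difference in 28 of the 30 members, all but Cd72 and H2-DMa, and the SD did so in 4. The count of members at an unadjusted p under 0.05 depended on single arrays. Leaving out cold replicates 1, 2 and 3 in turn gave 0, 1 and 12 members. Leaving out the knockouts in that order gave 17, 20 and 6, and leaving out the RT controls gave 26, 0 and 1, in fits that counted between 13% and 27% of all genes in either direction (20.4% with all arrays). Without the 3 in-between arrays the count was 0, against 4.69% of all genes, with a median of -1.05 and a lowest limma adjusted p of 0.814. In these fits without 1 array the median lay between -1.38 and -0.70.

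**Figure D1:**
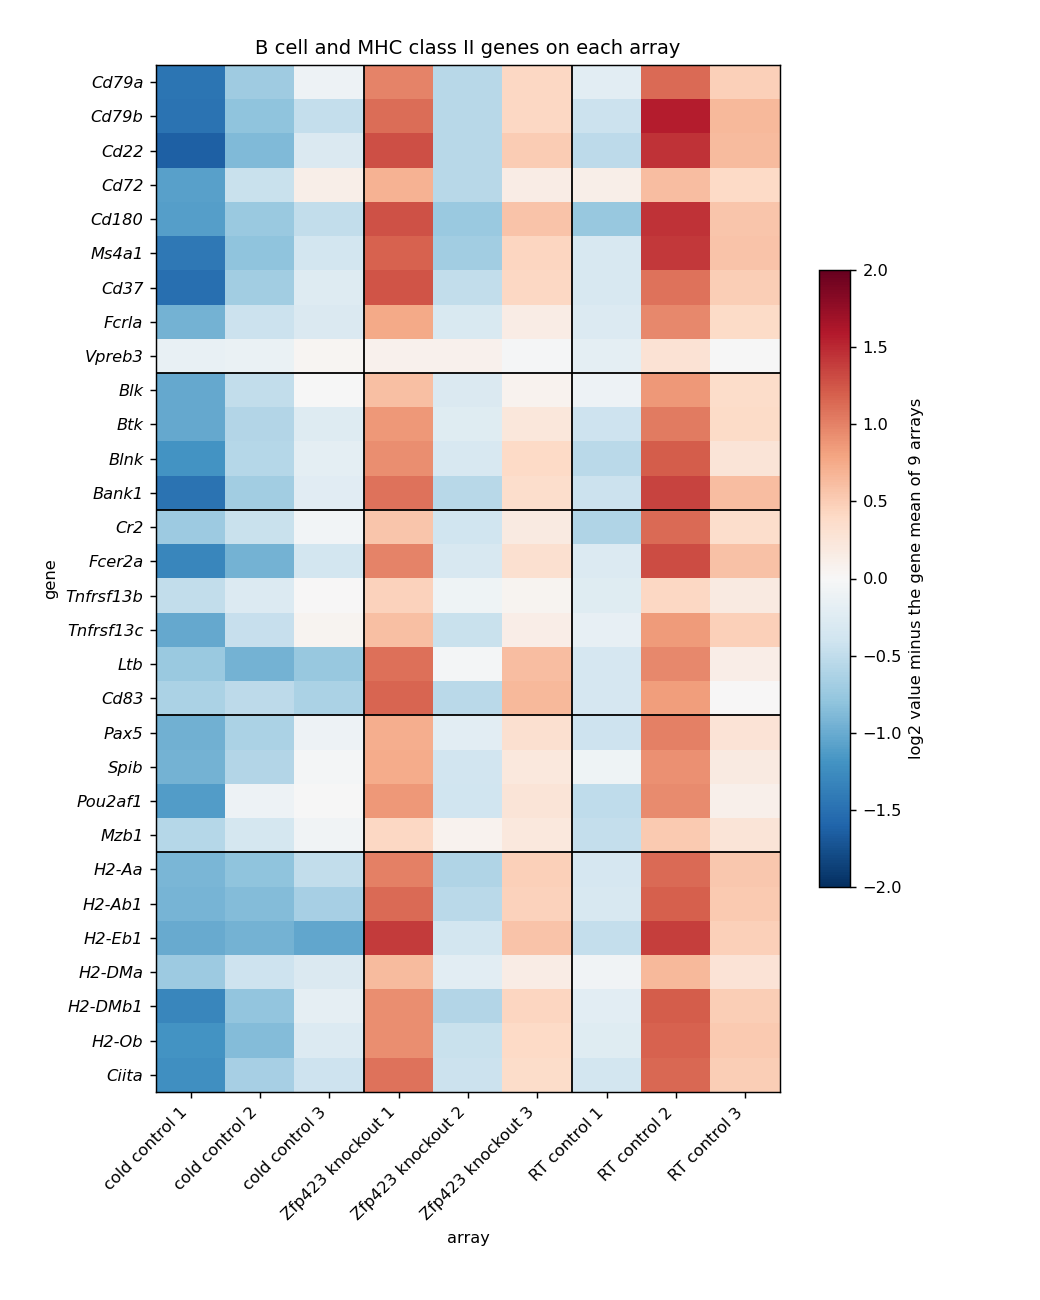
Log2 value of each of the 30 genes on each of the 9 arrays, minus the gene's mean over the 9 arrays, with horizontal lines between the 5 roles and vertical lines between the 3 groups. RT control replicate 2 and knockout replicate 1 stand high and cold replicate 1 low for nearly every gene, and Vpreb3 varies least.

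Knockout and RT control arrays overlapped for every member. The median difference was -0.11 log2 units, with 22 members below 0 and 8 above, beside a median of 0.02 over all genes, of which 42.7% were below 0. Differences ran from -0.29 for Tnfrsf13c to 0.30 for Ltb, and all 30 intervals of 95% held 0. Limma called 0 of the 30 members and 0.379% of all genes, with adjusted p between 0.730 and 1, and 0 members against 16.3% of all genes had an unadjusted p under 0.05. Arrays did not overlap for 0 members, against 9.4% of all genes higher and 7.99% lower in the knockouts. The interval bounds reached -1.69 log2 units for Cd79b and 1.50 for Cd180, so these values do not show that knockout and RT control tissue are alike. The SD over the knockout arrays exceeded the difference in all 30 members. The direction of the median rested on single arrays. It was -0.48 without RT control replicate 1, -0.46 without knockout replicate 1, 0.20 without RT control replicate 2 and 0.21 without knockout replicate 2.

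B cell and MHC class II genes also stood lower in the cold when the knockouts were the comparison. All 30 differences were below 0, with a median of -1.01 beside -0.03 over all genes, of which 57.4% were below 0. Limma called 0 members and 2.42% of all genes, the lowest adjusted p being 0.0857 for Ltb, and 5 members had an unadjusted p under 0.05, all lower, against 16.8% of all genes. The arrays did not overlap for 7 members, all lower in the cold (Btk, Fcer2a, H2-Ab1, H2-DMa, H2-Eb1, Ltb and Mzb1), and for 20.2% of all genes in that direction. Both comparisons of the cold share the same 3 cold arrays. The count at an unadjusted p under 0.05 was 1, 1 and 4 when cold replicates 1, 2 and 3 were left out in turn. It was 1, 21 and 1 when the knockouts were left out in that order, and 12, 11 and 2 when the RT controls were, in fits that counted between 18.4% and 34.7% of all genes in either direction. Without the 3 in-between arrays it was 0, against 5.8% of all genes, with a median of -0.95. Without knockout replicate 1 the median was -0.67. Without knockout replicate 2 it was -1.44, and 2 members passed, beside 2703 of the 16639 tested genes. The 2 members were Ltb (-1.67, limma adjusted p = 0.0345) and Cd83 (-1.50, limma adjusted p = 0.0372), the latter from a row not mapped to the genome.

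**Figure D2:**
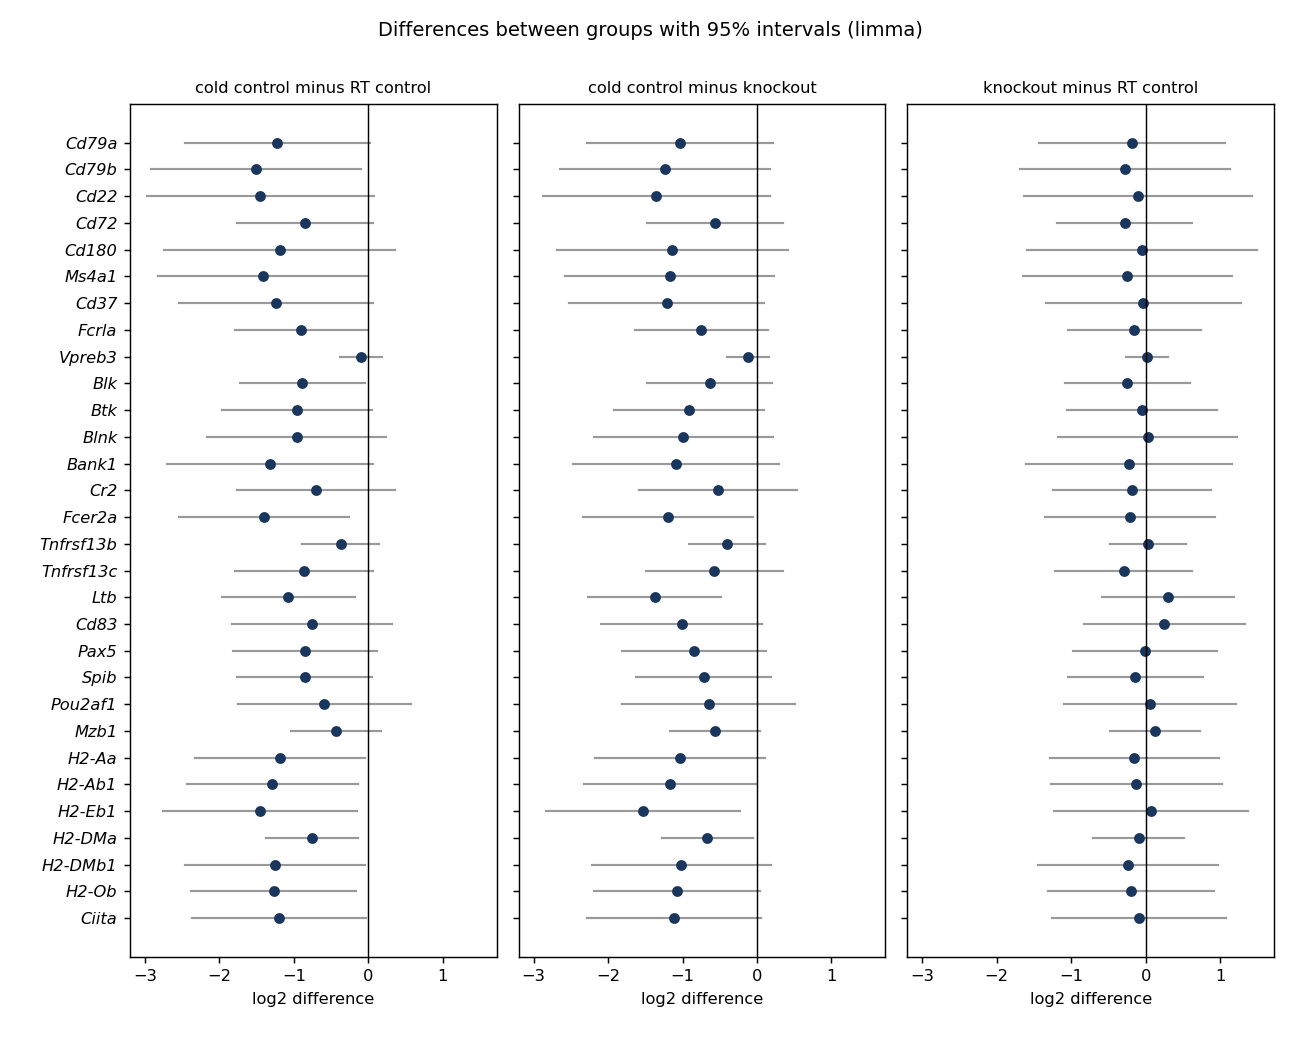
Differences in log2 expression for the 30 genes, with points for the estimates and lines for 95% intervals of the limma fit, as cold minus RT control (left), cold minus knockout (middle) and knockout minus RT control (right). All points of the left and middle panels lie below 0, and all lines of the right panel cross 0.

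The B cell receptor and its co-receptors made up 9 members, with medians of -1.22 in the cold against RT controls, -1.14 in the cold against knockouts and -0.15 in the knockouts against RT controls. Cd79a read 8.21, 8.96 and 9.57 on the cold arrays, 10.65, 9.11 and 10.08 on the knockout arrays and 9.45, 10.80 and 10.14 on the RT control arrays. Cd79b, the partner chain, read 9.46, 10.13 and 10.45 in the cold, 12.04, 10.37 and 11.34 in the knockouts and 10.51, 12.50 and 11.57 in RT controls. Cold replicate 1 was the lowest array for both chains and RT control replicate 2 the highest, and the highest cold array of Cd79b lay just under the lowest RT control array while those of Cd79a overlapped. Against RT controls the cold differences were -1.22 ± 0.53 log2 units for Cd79a (limma adjusted p = 0.250) and -1.51 ± 0.60 for Cd79b (limma adjusted p = 0.222), or 2.33-fold and 2.85-fold lower.

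Ms4a1, which encodes the B cell surface protein CD20, read 9.64, 10.27 and 10.71 in the cold, 12.25, 10.38 and 11.50 in the knockouts and 10.75, 12.49 and 11.64 in RT controls. Its cold arrays lay below all RT control arrays and overlapped the knockout arrays. The inhibitory co-receptor Cd22 read 8.75, 9.50 and 10.09 in the cold, 11.67, 9.83 and 10.88 in the knockouts and 9.86, 11.83 and 11.01 in RT controls, with cold replicate 3 inside the range of both other groups. Ms4a1 differed by -1.42 ± 0.60 in the cold against RT controls and Cd22 by -1.45 ± 0.65 (limma adjusted p = 0.241 and 0.259). Among the other 5, the inhibitory receptor Cd72, the Toll-like receptor relative Cd180, the tetraspanin Cd37 and the Fc receptor-like gene Fcrla stood between -1.24 and -0.85 in the cold against RT controls. Vpreb3, a gene of B cell precursors, had a mean of 5.76 over all arrays, close to the filter, and, in the cold against RT controls, the member difference nearest 0 (-0.10 ± 0.12).

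**Figure D3:**
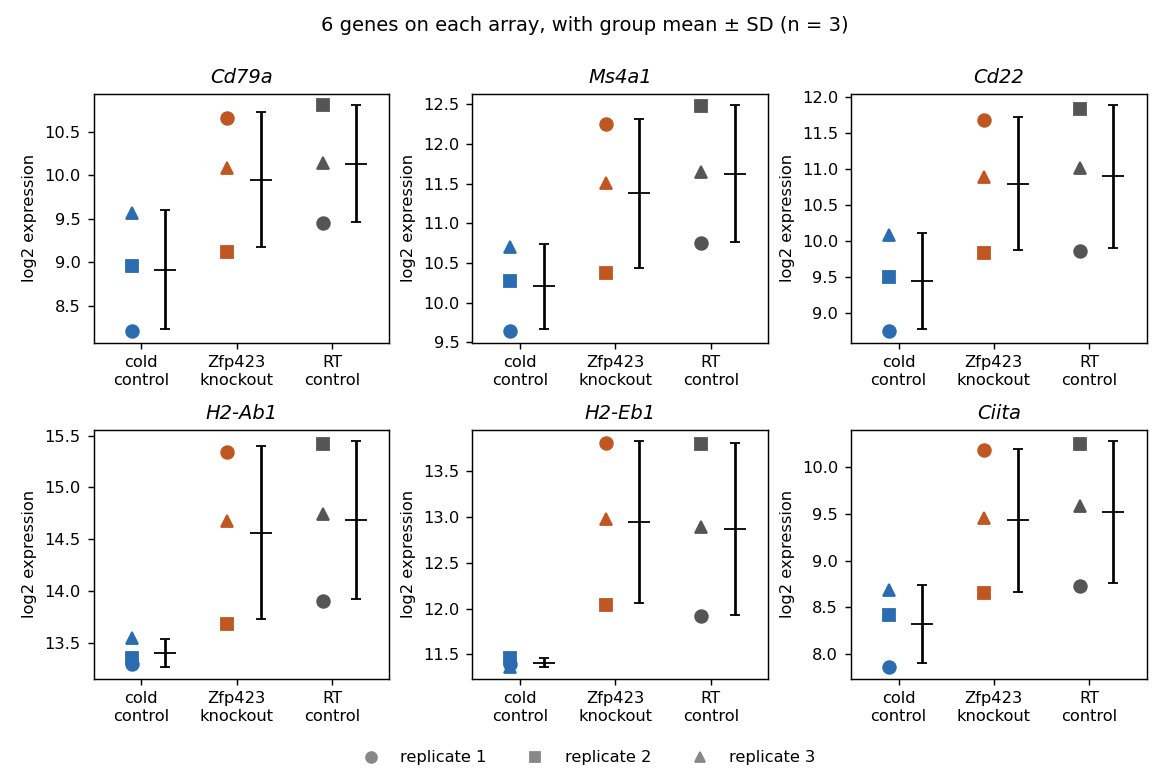
Log2 expression of Cd79a, Ms4a1, Cd22, H2-Ab1, H2-Eb1 and Ciita on each array (coloured points, shape by replicate number) for cold-exposed controls, knockouts and RT controls, with the group mean ± SD (n = 3) in black. The axes do not start at 0 and differ between panels, and the cold points of H2-Ab1 and H2-Eb1 lie close together below every point of the other groups.

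The 4 genes of signalling inside the B cell were the kinases Blk and Btk, the adaptor Blnk and the scaffold Bank1. Their cold differences against RT controls lay between -1.32 for Bank1 and -0.88 for Blk, with limma adjusted p between 0.228 and 0.324. Against knockouts they lay between -1.09 and -0.64. The cold arrays of Btk lay below all knockout arrays, and for each of the 4 genes they overlapped the RT control arrays.

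Follicle receptors and survival signals gave 6 members with a median of -0.81 in the cold against RT controls. Cr2, the complement receptor of B cells and follicular dendritic cells, read 9.27, 9.55 and 9.94 in the cold, 10.56, 9.59 and 10.17 in the knockouts and 9.40, 11.13 and 10.35 in RT controls. The groups overlapped, and the cold difference was -0.71 ± 0.45 against RT controls (limma adjusted p = 0.399). Its dimmer row read 8.84, 9.05 and 9.19 in the cold, 9.74, 8.77 and 9.35 in the knockouts and 8.61, 10.43 and 9.64 in RT controls, with the same highest and lowest array in each group.

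Ltb, which encodes the lymphotoxin beta chain that helps to keep lymphoid tissue organised, read 9.62, 9.41 and 9.60 in the cold, 11.46, 10.32 and 10.98 in the knockouts and 10.02, 11.33 and 10.50 in RT controls. The 3 cold arrays lay close together and below every other array. Ltb differed by -1.07 ± 0.38 in the cold against RT controls and by -1.37 ± 0.38 against knockouts (limma adjusted p = 0.189 and 0.0857). Fcer2a, the low-affinity IgE receptor of follicular B cells, had cold arrays below all others too, at -1.41 ± 0.49 against RT controls (limma adjusted p = 0.181). The receptors of B cell survival factors, Tnfrsf13b and Tnfrsf13c, stood at -0.37 and -0.86. Cd83, a surface marker of activated B cells and dendritic cells, stood at -0.76 ± 0.46. Its brightest row is one the platform lists as not mapped to the genome, and the second row read 6.43, 6.17 and 6.15 in the cold, 7.85, 6.39 and 7.03 in the knockouts and 6.50, 7.30 and 6.78 in RT controls.

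Transcription and secretion gave 4 members with the smallest median of the 5 roles in the cold against RT controls, -0.72. Pax5, the factor that keeps B cell identity, read 7.17, 7.51 and 8.02 in the cold, 8.86, 7.92 and 8.46 in the knockouts and 7.71, 9.13 and 8.41 in RT controls. Cold replicate 3 lay above the lowest array of each other group, and the difference against RT controls was -0.85 ± 0.41 (limma adjusted p = 0.286). The Ets factor Spib, the octamer coactivator Pou2af1 and Mzb1, a chaperone of antibody assembly, stood at -0.85, -0.59 and -0.44.

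MHC class II genes had a median of -1.26 in the cold against RT controls, of -1.07 in the cold against knockouts and of -0.12 in the knockouts against RT controls. H2-Aa and H2-Ab1 encode the chains of the I-A molecule. H2-Aa read 9.98, 10.10 and 10.40 in the cold, 11.91, 10.29 and 11.37 in the knockouts and 10.56, 12.03 and 11.44 in RT controls. H2-Ab1 read 13.29, 13.35 and 13.55 in the cold, 15.34, 13.68 and 14.67 in the knockouts and 13.90, 15.42 and 14.74 in RT controls. Both had every cold array below every RT control array, and for H2-Ab1 the knockout arrays also lay above. The differences against RT controls were -1.18 ± 0.49 and -1.29 ± 0.49 (limma adjusted p = 0.232 and 0.210).

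H2-Eb1, the beta chain of the I-E molecule, read 11.40, 11.47 and 11.37 in the cold, 13.81, 12.04 and 12.98 in the knockouts and 11.92, 13.79 and 12.89 in RT controls. The cold arrays spanned 0.10 log2 units while the other groups spanned well over 1, and no cold array overlapped them. H2-Eb1 had the most negative member difference between cold and knockout, -1.53 ± 0.55 (limma adjusted p = 0.140), and stood at -1.46 ± 0.55 against RT controls (limma adjusted p = 0.210). Ciita, the coactivator that switches on MHC class II transcription, read 7.86, 8.42 and 8.69 in the cold, 10.18, 8.66 and 9.46 in the knockouts and 8.73, 10.25 and 9.59 in RT controls. Its highest cold array lay just below the lowest RT control array and just above knockout replicate 2, and the difference was -1.20 ± 0.50 against RT controls (limma adjusted p = 0.237).

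H2-DMa and H2-DMb1, which encode the catalyst of peptide exchange, stood at -0.76 ± 0.26 and -1.26 ± 0.51 in the cold against RT controls, and H2-Ob, a chain of the brake on that catalyst, at -1.27 ± 0.47 (limma adjusted p between 0.180 and 0.232). All 7 MHC class II genes had an unadjusted p under 0.05 in this comparison, all lower, against 11% of all genes in that direction. For 6 of them, all but H2-DMb1, the arrays did not overlap, against 18.2% of all genes in that direction. None of the 7 passed over all genes. Without the in-between arrays 0 of the 30 members had an unadjusted p under 0.05, against 4.69% of all genes in either direction.

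Within each room temperature group nearly all members kept 1 order of arrays. In RT controls all 30 were highest on replicate 2 and lowest on replicate 1, with replicate 3 between, an order that 28.9% of all tested genes showed. The gap between these arrays had a median of 1.42 log2 units, or 2.68-fold, and exceeded 1 unit in 24 members against 4.31% of all genes. It ran from 0.49 for Vpreb3 to 2.19 for Cd180. In the knockouts 29 of 30 were highest on replicate 1 and lowest on replicate 2, all but Vpreb3, with a median gap of 1.29 log2 units, an order seen in 31.1% of all genes.

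The cold arrays varied less. Replicate 3 was the highest and replicate 1 the lowest for 27 of 30 members, against 19.2% of all genes, with a median gap of 0.89. The gap was 1.36 for Cd79a and -0.03 for both Ltb and H2-Eb1. By role its median was 1.07 for the B cell receptor group and 0.45 for MHC class II, with ranges that overlapped, and the difference between roles was not tested. On 1 scale, the median over the members of each gene's value minus its mean was -1.03, -0.65 and -0.25 on the cold arrays, 0.93, -0.42 and 0.36 on the knockout arrays and -0.33, 1.11 and 0.43 on the RT control arrays. Cold replicate 3 thus lay above knockout replicate 2 and RT control replicate 1, the lowest arrays of their groups.

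Other genes of the same pathways, from lists chosen beside the members, mostly stood below 0 in the cold. Of 13 further MHC class II pathway genes, with peptide-editing, protease, Rfx and costimulatory genes among them, 0 passed in any comparison. Their medians were -0.72 in the cold against RT controls, -0.91 in the cold against knockouts and 0.15 in the knockouts against RT controls, and 13 and 12 were below 0 in the cold against RT controls and knockouts. Of 12 further B cell receptor pathway genes with a row, 0 passed, with medians of -0.85, -1.01 and 0.10 in the same order, and of 14 other B cell factors 0 passed, with medians of -0.75, -0.86 and 0.02. In the cold 12 of the 12 receptor pathway genes were below 0 against RT controls and 11 against knockouts, all but Cd81, and 13 of the 14 factors were below 0 in both comparisons, all but Ltbr. Of 7 MHC class I genes with a row 0 passed, with medians of -0.46, -0.35 and 0.01. At an unadjusted p under 0.05 limma counted 4, 6 and 1 of the 13 MHC class II pathway genes, 0, 6 and 1 of the 12 receptor pathway genes, 5, 6 and 0 of the 14 other factors and 2, 1 and 0 of the 7 class I genes, in the same order. Those counted in the cold were lower there, apart from Cd81, which was higher against knockouts. Over all tested genes limma counted 20.4%, 26.9% and 16.3% at that p, in either direction and in the same order.

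Of 7 plasma cell genes 3 were below the filter. The 4 tested all lay below 0 in the cold against RT controls, between -0.69 and -0.10 with a median of -0.55. Limma called 0 of them, and 2 had an unadjusted p under 0.05, both lower, against 11% of all genes in that direction. Against knockouts 3 of the 4 lay below 0. In the germinal centre B cell list 4 of 5 genes with a row were tested, 3 of them with means under 7 and differences below 0 in the cold against RT controls. The exception was Bcl6, a repressor that many other cells also express, which rose by 1.68 ± 0.30 in the cold against RT controls (limma adjusted p = 0.0498). It passed in 8 of 20 alternatives, with limma adjusted p between 6.48e-05 and 0.814.

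Markers of other leukocytes moved with the B cell genes, and their part in the results was not tested. The 14 T cell genes with a row had a median deviation of -0.88, -0.96 and -0.86 on the cold arrays, 1.57, -0.10 and 1.00 on the knockout arrays and -0.20, 0.41 and 0.00 on the RT control arrays. Their mean level ran from 8.42 to 8.45 in the cold, from 9.19 to 10.76 in the knockouts and from 9.07 to 9.65 in RT controls. By list median the T cell genes were low in the cold like the B cell genes, but highest on a knockout array. The B cell list median was highest on an RT control array. Single members departed from this, with Cd72, Cd37, Tnfrsf13b, Ltb, Cd83 and H2-Eb1 highest on knockout replicate 1. In T cell genes the median difference was -1.01 in the cold against RT controls, -1.74 in the cold against knockouts and 0.73 in the knockouts against RT controls, where all 14 lay above 0. Il7r, the interleukin 7 receptor, fell by 1.89 log2 units in the cold against knockouts (limma adjusted p = 0.0237) and was the 1 T cell gene past the threshold there, with 0 in the other comparisons. At an unadjusted p under 0.05 limma counted 6 of the 14 T cell genes in the cold against RT controls and 14 in the cold against knockouts, all lower. It counted 2 in the knockouts against RT controls, both higher. The shares of all genes in these comparisons were 20.4%, 26.9% and 16.3%, in either direction. Il7r passed in 12 of 20 alternatives, with limma adjusted p between 1.35e-05 and 0.667. It was listed at the same value, 11.07, on all 3 RT control arrays. Cd3e, a chain of the T cell receptor complex, read 9.74, 9.82 and 9.70 in the cold, 12.69, 10.61 and 11.99 in the knockouts and 10.72, 11.41 and 11.02 in RT controls.

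Most pan-leukocyte and macrophage genes had the same order of arrays within the room temperature groups as the B cell genes. It was seen in 5 of 5 pan-leukocyte genes in both groups, in 14 of 15 macrophage genes in the knockouts (all but Cd163) and in 12 of 15 in RT controls (all but Mrc1, Cd163 and Mertk). The 5 pan-leukocyte genes had a mean level of 9.97 to 10.15 in the cold, 10.60 to 12.46 in the knockouts and 10.58 to 11.93 in RT controls. The 15 macrophage genes had a mean level of 8.20 to 8.34 in the cold, 8.24 to 9.66 in the knockouts and 8.78 to 9.66 in RT controls, and Cd68, a lysosomal protein of macrophages, read 8.86, 9.22 and 9.17 in the cold, 12.22, 8.97 and 11.08 in the knockouts and 10.24, 12.33 and 11.47 in RT controls. No pan-leukocyte or macrophage gene passed in limma. In the cold 2 of 5 pan-leukocyte genes, both lower, and 7 of 14 tested macrophage genes, 6 lower and Mertk higher, had an unadjusted p under 0.05 against RT controls, beside 20.4% of all genes in either direction. Against knockouts 5 and 3 did, all lower, beside 26.9% of all genes. The 10 dendritic cell genes had a mean level of 6.29 to 6.33 in the cold, 6.37 to 7.07 in the knockouts and 6.47 to 6.78 in RT controls.

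Of 7 lymph node genes with a row, 5 passed the filter. Glycam1, a mucin of the high endothelial venules through which lymphocytes enter a node, read 9.21, 10.50 and 11.23 in the cold, 13.66, 10.70 and 12.65 in the knockouts and 10.30, 12.39 and 11.39 in RT controls. Cxcl13, the chemokine that draws B cells into follicles, read 13.08, 13.94 and 14.44 in the cold, 15.40, 13.23 and 14.62 in the knockouts and 14.16, 15.11 and 14.73 in RT controls. Both had the same highest and lowest array in every group as the B cell receptor genes, cold replicates 3 and 1 included. The list as a whole kept that order less often. It was seen in 6 of the 7 genes in the knockouts, all but Fut7. In RT controls 4 of the 7 had it, all but Chst4, Madcam1 and Tnfsf11. None of the 5 tested genes passed the threshold in limma. At an unadjusted p under 0.05 it counted 0 in the cold against RT controls and 1 in the cold against knockouts. Knockouts against RT controls gave 0 at that p. The shares of all genes in these comparisons were 20.4%, 26.9% and 16.3%, in either direction. The mean level of the 7 ran from 7.44 to 8.00 in the cold, from 7.85 to 8.94 in the knockouts and from 7.83 to 8.50 in RT controls. Whether the amount of node tissue in the samples set the B cell values was not tested.

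**Figure D4:**
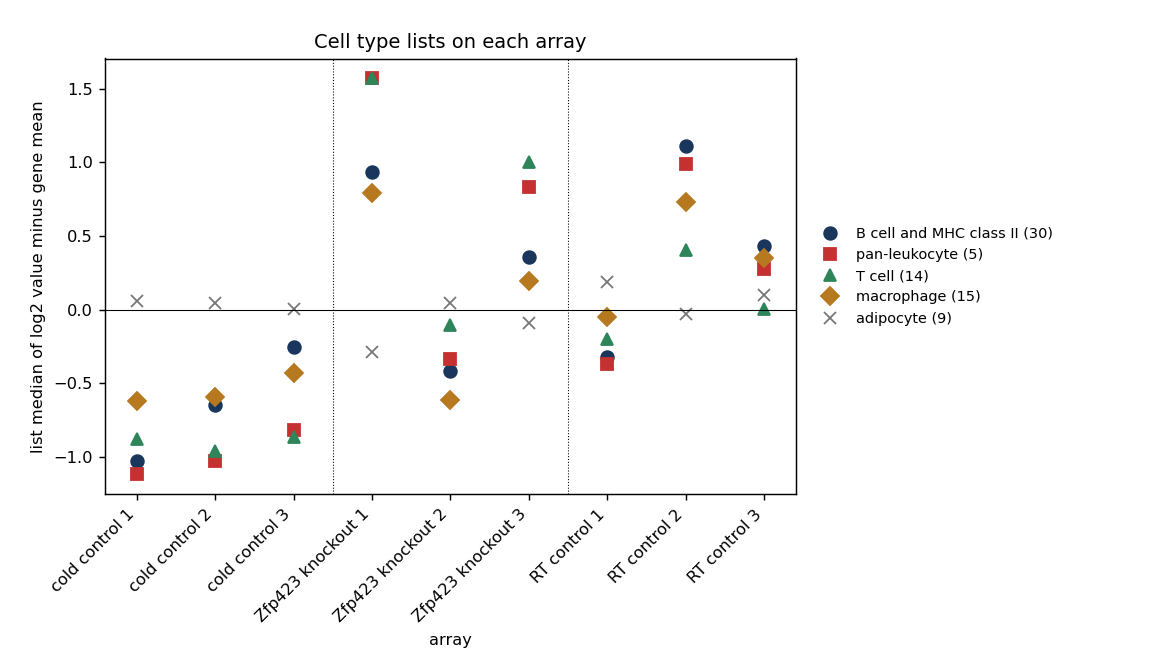
Median over a list of each gene's log2 value minus its mean over the 9 arrays, on each array, for the 30 B cell and MHC class II genes and 4 cell type lists (number of genes in brackets). The B cell, pan-leukocyte, macrophage and T cell lists stand highest in the room temperature groups on knockout replicate 1 and RT control replicate 2. They lie below 0 on all cold arrays and also on knockout replicate 2 and RT control replicate 1. For the B cell list, cold replicate 3 lies above those room temperature arrays. The adipocyte list varies least.

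Adipocyte genes stood the other way round within the room temperature groups. The adipocyte list had a mean level of 16.8 to 17.0 in the cold, 16.1 to 16.8 in the knockouts and 16.6 to 17.0 in RT controls, with knockout replicate 1 and RT control replicate 2, the arrays with the highest B cell values, the lowest of their groups. The thermogenic list was lowest among the knockouts on replicate 1, at 12.4, against 15.4 and 14.5 on replicates 2 and 3. A list of skeletal muscle genes had mean levels of 12.4, 11.3 and 6.93 on the cold arrays, 10.4, 12.4 and 11.7 on the knockout arrays and 11.8, 12.5 and 12.1 on the RT control arrays, so cold replicate 3, the cold array with the highest B cell values, was the lowest array for muscle. In RT controls all 8 muscle genes had the array order of the B cell genes, and in the knockouts 0 of the 8 did. The part of muscle, adipocyte or thermogenic content in the B cell values was not tested.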

How the data were processed

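RNA of inguinal fat was measured on Affymetrix arrays, 1 array a sample. The log2 values are those the authors deposited, made with Affymetrix Expression Console per the submitters' processing notes. Its version, summarisation, normalization and build were not given in the sources used here. The log2 scale was inferred from the deposited values, 1.84 to 19.93 with array medians between 5.28 and 5.34. Rows were named through the platform annotation (30604 rows with 1 symbol, 2146 with several and 39938 with none), with 827 symbols updated through RefSeq. Rows with 1 symbol and a mean at or above the median row mean (5.31) were kept, the brightest per gene. Groups were fitted with limma 3.58.1 in R 4.3.3 (lmFit, eBayes, all 9 arrays, 6 residual and 1.23 prior degrees of freedom), two-sided, with Benjamini-Hochberg adjustment over 16639 genes. Errors of differences are standard errors, and intervals cover 95%. The fit was also run on simulated data with independent arrays. That run cannot show how the fit behaves if the arrays of a group are not independent.

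The members, lists and named genes were chosen with earlier results of these data known. All 9 values are given for a fixed set of members (Cd79a, Cd79b, Ms4a1, Pax5, Cr2, Cd22, Ltb, H2-Aa, H2-Ab1, H2-Eb1, Ciita, with Cd74 planned), and other lists are named by defining markers (Cd3e, Glycam1, Cxcl13, Cd68, Adipoq, Ucp1, with Ccl21a lacking a row of its own) or their 3 brightest genes. Promoters are from RefSeq GRCm38.p6; the promoter matches are by symbol. Alternatives covered normalization, filters, rows, the test, samples and the replicate number. Deviations of same-numbered arrays from their group means correlated at -0.46 to 0.09. A smaller shared effect could be hidden by the spread among arrays, so these correlations do not settle whether the numbers pair them.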

Additional observations from a re-analysis of the deposited data

How the results depend on the processing

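Over 20 alternatives, 0 members passed in 19, 19 and 18 of them for knockout against RT control, cold against RT control and cold against knockout. The exceptions were array weights, with 12, 28 and 29 members and 11755, 8946 and 9904 genes, and the fit without knockout replicate 2. The weight estimate did not converge and gave knockout replicate 3 a weight of 1659 and RT control replicate 3 one of 11.7, so those calls rest on these arrays; Tnfrsf13b reversed there in the knockouts (-0.12, limma adjusted p = 0.0167, against 0.03). All cold medians stayed below 0. Leaving out 1 array gave medians of -0.48 to 0.21, -1.38 to -0.70 and -1.44 to -0.67, member counts of 0 to 0, 0 to 0 and 0 to 2, and gene counts of 0 to 834, 23 to 983 and 14 to 2703, against 63, 260 and 402 with all arrays. The replicate block called 0 members (0, 1 and 1 at an unadjusted p under 0.05), left the medians at -0.11, -1.02 and -1.01 and gave 1, 42 and 36 genes, and every member kept its side of the threshold. Gene counts were also 144 and 705 (knockout against RT control, cold against knockout) with the filter at the 75th percentile, and 16, 131 and 218 without a filter. They were 0 (1923 at an unadjusted p under 0.05 in limma) and 1347 for the first and second comparison with the 2 compared groups only, 37 for the first with trend and robust, 403 for the second with quantile normalization and 0, 0 and 0 without the 3 in-between arrays (682, 781 and 965 at an unadjusted p under 0.05 in limma). Limma called 207 genes higher and 195 lower in the cold against knockouts, 333 and 207 with median centring and 320 and 150 with quantile normalization. Leaving out unmapped rows, chosen after seeing the data, changed no member's call. The cause of these changes was not tested, apart from the removal of arrays or genes that a setting itself makes.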
